A study of Mus musculus with 10 samples.

Results

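The 8 genes described here mark the main classes of motor neuron that send axons to skeletal muscle. They were chosen by symbol, with earlier results of these data known. Rbfox3, Vipr2 and Spp1 served as markers of alpha motor neurons, and Npas1, Wnt7a, Creb5, Stxbp6 and Plch1 as markers of gamma motor neurons. All 8 symbols matched a gene, of 51912 genes counted. Alpha motor neurons drive the force-producing fibres of muscle, while gamma motor neurons are smaller cells that set the tension of the fibres inside muscle spindles, the stretch sensors of muscle. The classes are told apart in tissue mainly by cell size and by a few genes: alpha cells stain for NeuN, the product of Rbfox3, whereas gamma cells stain weakly for it and express the nuclear receptor gene Esrrg.

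Motor neurons of the lumbar spinal cord were cut by laser from stained frozen sections of 10 mice, and the polyadenylated RNA of about 50 cells was sequenced as 1 library per mouse. The groups were 5 HSA-NRTN mice, in which the promoter of human skeletal actin drives the neurotrophic factor neurturin in muscle fibres, and 5 wild-type littermates without the transgene, each with 3 females and 2 males. No source used here gives their ages. The transgene acts in muscle and not in the captured cells, so neuronal Nrtn checks no label. Cells were taken only above a minimum area and with a nucleolus in view, a rule that favours large motor neurons, so the captured cells are not a sample of all alpha and gamma cells. In such pools, fewer cells of a class and less RNA per cell cannot be told apart.

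Gene counts per library ran from 1875971 to 6641695, lowest in HSA-NRTN replicate 2, and 14090 to 19675 genes had at least 1 count. Motor neuron genes were present throughout: 8 markers, among them Chat, the enzyme of acetylcholine synthesis, and the motor neuron transcription factor genes Isl1 and Mnx1, summed to 6678 to 9078 CPM (counts scaled to a common library size) in HSA-NRTN and 6784 to 8816 CPM in wild-type libraries. Nefh, also on that list, made up the largest part of the sum, at 3529 CPM in HSA-NRTN and 4519 CPM in wild-type libraries on average. Of the 8, 6 had higher means in HSA-NRTN libraries. Chat was at 98.5 to 151 CPM in HSA-NRTN and 70.7 to 98.1 CPM in wild-type libraries, without overlap, as for 0.645% of all genes tested in this direction. Markers of other cells were found as well. HSA-NRTN replicate 2 had the highest sum of the 6 oligodendrocyte markers, 1419 CPM, against 270 to 475 CPM in the other HSA-NRTN and 201 to 641 CPM in the wild-type libraries, and each member was also fitted without that library. The part of these markers in the differences below was not tested. Libraries of the same genotype had Pearson correlations of 0.759 to 0.949 over genes, and those of different genotype 0.731 to 0.938.

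The series asks how neurturin from muscle bears on motor neuron identity, and the genotypes were compared here for the markers of both classes. Of the 3 alpha markers, Vipr2 and Rbfox3 had lower means and Spp1 a higher mean in HSA-NRTN pools. Of the 5 gamma markers, Npas1, Wnt7a and Creb5 had higher means, Stxbp6 a lower mean and Plch1 nearly equal means. Npas1 was the single member whose lowest HSA-NRTN library exceeded the highest wild-type library, as was so for 0.499% of the 26070 genes with a count. A filter on low counts left 6 members for the test across 11630 genes, all but Npas1 and Wnt7a. Of these 6, 0 were called at an adjusted p under 0.05 by the quasi-likelihood F test of edgeR. Over all genes tested 0.0086% passed, so a count of 0 among 6 genes does not set the members apart. At an unadjusted p under 0.05 the count was 3 of 6, Creb5 and Spp1 higher and Vipr2 lower, where 4.83% of all genes had such a p, 2.41% higher and 2.42% lower. The median log2 fold change was -0.25 over the 6 members and -0.01 over all genes tested. DESeq2, run on all genes with a count, called 1 of the 8 members, Npas1, against 0.8% of the 15741 genes with an adjusted p, and limma voom called 0 of the 6, against 0.0258% of all genes tested.

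**Figure D1:**
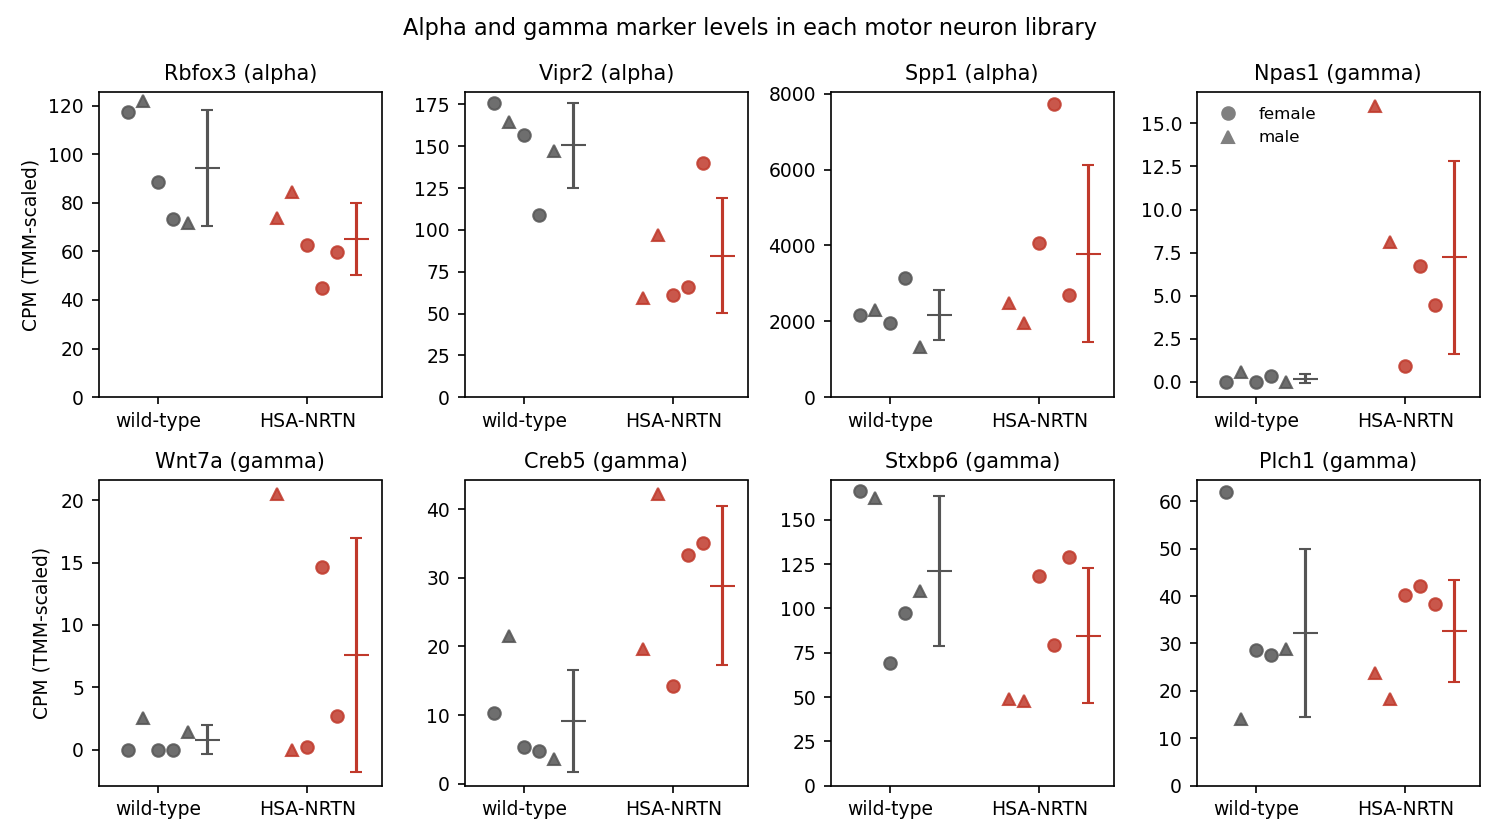
CPM of the 8 markers in each of 10 libraries (TMM-scaled, linear axes that differ between panels), circles for females and triangles for males, with the mean and SD of each genotype (n = 5) beside the points. The groups do not overlap for Npas1, with 0.916 to 16.0 CPM in HSA-NRTN and 0 to 0.566 CPM in wild-type libraries, and overlap for the other 7 genes.

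Levels differed widely between the markers, with Spp1 far above the others in both genotypes. Scaled to the length of all annotated exons, wild-type libraries held 1320 ± 401 CPM per kb of Spp1 (SD, n = 5), 33.7 ± 5.73 of Vipr2, 22.9 ± 7.97 of Stxbp6, 16.2 ± 4.10 of Rbfox3 and 3.73 ± 2.05 of Plch1. The remaining gamma markers were lower, at 0.365 ± 0.295 CPM per kb for Creb5, 0.248 ± 0.364 for Wnt7a and 0.0605 ± 0.0869 for Npas1. In that order the ranges of neighbours did not overlap between Spp1 and Vipr2, between Rbfox3 and Plch1, and between Plch1 and Creb5, and overlapped for the other neighbours. HSA-NRTN libraries kept the order of the first 5 genes, from 2296 ± 1418 CPM per kb for Spp1 to 3.77 ± 1.25 for Plch1 (SD, n = 5), and then placed Npas1 at 2.40 ± 1.86, Wnt7a at 2.40 ± 2.96 and Creb5 at 1.15 ± 0.462. The ranges of those last 3 genes and of Plch1 overlapped from neighbour to neighbour. The annotated exons of Creb5 span 25.02 kb, against 1.65 to 8.64 kb for the others, which places it low on this scale.

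**Figure D2:**
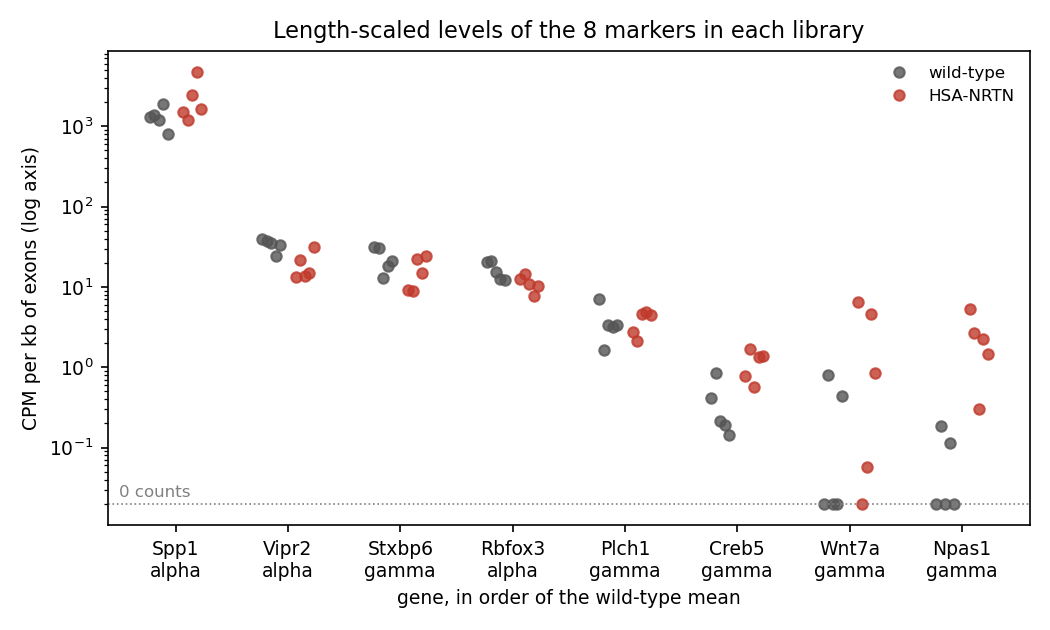
Level of each marker in CPM per kb of exons (log axis) in each library, grey for wild-type and red for HSA-NRTN, with genes in the order of the wild-type mean and libraries without a count drawn on the dotted line. Spp1 lies above every other marker in every library, and the 3 lowest wild-type means are those of Creb5, Wnt7a and Npas1.

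Vipr2 (ENSMUSG00000011171, chromosome 12 from 116077726 to 116146261, plus strand, GRCm38) encodes VPAC2, a receptor for the neuropeptides VIP and PACAP. The wild-type libraries 1 to 5 held 176, 165, 156, 109 and 147 CPM. The HSA-NRTN libraries 1 to 5 held 59.3, 96.7, 60.8, 65.8 and 140 CPM, and 4 of these 5 lay below every wild-type library while HSA-NRTN replicate 5 lay among them. The means were 84.5 ± 34.5 CPM in HSA-NRTN and 151 ± 25.6 CPM in wild-type mice (SD, n = 5 each). The log2 fold change of -0.83 (SE 0.28) did not reach the threshold over all genes (edgeR, unadjusted p = 0.00894, adjusted p = 0.778). It was -1.10 without HSA-NRTN replicate 5 and -0.89 without HSA-NRTN replicate 2, and stayed negative in all 24 alternatives. In the authors' deposited table its moderated log2 fold change was -0.74 with an adjusted p of 0.223.

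Genes of the same peptide system were mostly sparse. Adcyap1r1, the PACAP receptor gene, was at 101 ± 50.1 CPM in HSA-NRTN and 55.8 ± 32.2 CPM in wild-type mice (mean ± SD, n = 5 each), a log2 fold change of 0.86 (SE 0.41) that did not pass (edgeR adjusted p = 0.999). Vipr1, which encodes the related receptor VPAC1, had 0 counts in all 10 libraries. Of the ligands, Vip had 26 counts in transgenic and 42 in wild-type mice, and Adcyap1, which encodes PACAP, averaged 18.2 and 0.321 CPM. Most of the Adcyap1 signal came from HSA-NRTN replicates 1 and 2, at 43.9 and 44.3 CPM, against 0 to 2.57 CPM in the other HSA-NRTN libraries. The same libraries held 38.9 and 53.0 CPM of Gad2, a marker of inhibitory neurons, against 0 to 8.13 CPM in the other 8 libraries, and the part of such cells in the Adcyap1 level was not tested.

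Rbfox3 (ENSMUSG00000025576, chromosome 11 from 118489762 to 118911597, minus strand) encodes the neuronal splicing regulator NeuN. Its levels were 117, 122, 88.4, 73.1 and 71.6 CPM in wild-type libraries 1 to 5 and 73.8, 84.3, 62.5, 44.7 and 59.9 CPM in HSA-NRTN libraries 1 to 5. The 3 HSA-NRTN females lay below all wild-type libraries, whereas the 2 HSA-NRTN males lay inside the wild-type range. The means were 65.1 ± 14.9 and 94.4 ± 23.9 CPM (SD, n = 5 each). For Rbfox3 the log2 fold change of -0.54 (SE 0.27) was not called (edgeR, adjusted p = 0.999). Without HSA-NRTN replicate 2 it was -0.65, and alternatives gave values from -0.73 to -0.30, all negative. The other RBFOX genes, which encode splicing factors that bind the same RNA motif, had negative log2 fold changes that did not pass, -0.30 (SE 0.29) for Rbfox1 and -0.08 (SE 0.32) for Rbfox2.

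Spp1 (ENSMUSG00000029304, chromosome 5 from 104435118 to 104441050, plus strand) encodes osteopontin, a secreted phosphoprotein that large alpha motor neurons make in the mouse spinal cord. The wild-type libraries 1 to 5 held 2166, 2295, 1943, 3151 and 1323 CPM, and the HSA-NRTN libraries 1 to 5 held 2486, 1958, 4063, 7727 and 2686 CPM. HSA-NRTN replicates 3 and 4 lay above every wild-type library, and the other 3 lay inside the wild-type range. A log2 fold change of 0.80 (SE 0.34) resulted, which was not called (edgeR adjusted p = 0.967). It rested to a large part on HSA-NRTN replicate 4: without that library it was 0.36, without HSA-NRTN replicate 2 0.96, and 0.23 once genes detected per library entered the model. HSA-NRTN replicates 4 and 3 also had the most genes detected, 19675 and 19233. Microglia, which can make osteopontin too, had marker sums of 6.66 to 38.3 CPM in HSA-NRTN and 2.38 to 21.8 CPM in wild-type libraries, highest in HSA-NRTN replicate 4, and their part in the level was not tested. An exon of Spp1 shares 181 bases with the unconfirmed transcript Gm42793, which had 30 counts over all libraries.

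Of 9 genes of osteopontin receptors, 5 could be fitted, with 1 positive and 4 negative log2 fold changes (median -0.64) and none that passed. The integrin subunit gene Itgb1 was at 280 ± 70.0 CPM in HSA-NRTN and 245 ± 40.9 CPM in wild-type mice (mean ± SD, n = 5 each), and Itgav, its partner in osteopontin binding, at 29.5 and 46.2 CPM on average. Cd44, a receptor of hyaluronan and osteopontin that was too low to be fitted, had 105 counts in transgenic mice and 0 in wild-type mice. Its HSA-NRTN libraries ran from 0 to 14.5 CPM, so the groups overlapped at 0.

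Npas1 (ENSMUSG00000001988, chromosome 7 from 16455721 to 16477728, minus strand) encodes a bHLH-PAS transcription factor. It was nearly silent in wild-type pools, with 0, 2, 0, 2 and 0 counts in wild-type libraries 1 to 5, and was counted in every HSA-NRTN library, with 54, 15, 5, 47 and 18 counts in replicates 1 to 5. In CPM the HSA-NRTN libraries held 16.0, 8.11, 0.916, 6.70 and 4.44 and the wild-type libraries at most 0.566. The 3 wild-type libraries without a count allow up to 0.689, 0.704 and 0.595 CPM, the worth of 3 counts, so HSA-NRTN replicate 3 stood just above what their depth could show. Such a separation with HSA-NRTN higher occurred for 0.499% of the 26070 genes with a count. Over pooled counts and scaled library sizes, 139 against 4 counts, the level was 36.7 times as high in HSA-NRTN libraries, with an exact 95% interval of 14.0 to 137 that covers counting error only.

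The call for Npas1 depended on the tool. Without the filter, edgeR gave a log2 fold change of 5.12 (SE 1.41) with an adjusted p of 0.107, where 0.311% of 26070 genes passed. DESeq2 gave 5.35 with an adjusted p of 0.00162, and the authors' deposited table a moderated log2 fold change of 1.70 with an adjusted p of 0.00220, in a table where 1.05% of 14778 genes passed. Without HSA-NRTN replicate 3, the library closest to wild-type, edgeR's adjusted p without a filter was 0.0428, and without HSA-NRTN replicate 2 it was 0.0631. Npas1 is also expressed by inhibitory interneurons of the mouse forebrain, so their markers are given beside it. The 5 inhibitory markers summed to 101, 161, 22.5, 74.5 and 12.8 CPM in HSA-NRTN libraries 1 to 5 and to 172, 35.1, 91.0, 0.688 and 74.4 CPM in wild-type libraries 1 to 5. The sum overlapped between the groups and was highest in wild-type replicate 1, which had 0 counts of Npas1. Slc6a5, a glycine transporter gene, made up most of the sum there, at 146 CPM. Gad2, an enzyme of GABA synthesis on the same list, was at 38.9 and 53.0 CPM in HSA-NRTN replicates 1 and 2, which were also highest for Npas1, and at 0 to 8.13 CPM in the other 8 libraries. HSA-NRTN replicates 4 and 5 had 6.70 and 4.44 CPM of Npas1 with 1.14 and 0 CPM of Gad2. The part of such cells in the Npas1 level was not tested.

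Npas1 works with the partner proteins encoded by Arnt and Arnt2. Arnt2 was at 138, 135, 33.5, 85.9 and 103 CPM in HSA-NRTN libraries 1 to 5 and at 14.0, 50.4, 19.2, 18.1 and 31.3 CPM in wild-type libraries 1 to 5, so 4 of the 5 HSA-NRTN libraries lay above the wild-type range. Its difference of 1.89 (SE 0.42) on the log2 scale was not called (edgeR adjusted p = 0.239). HSA-NRTN replicate 3 was the lowest of its group for Arnt2 and for Npas1. Arnt, at 8.82 CPM in HSA-NRTN and 6.19 CPM in wild-type mice on average, differed by 0.49 (SE 0.63) on the log2 scale, and the paralog gene Npas3 by 0.12 (SE 0.39), neither of which passed. Sim1 and Sim2, of the same protein family, had 0 counts in every library.

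Wnt7a (ENSMUSG00000030093, chromosome 6 from 91363981 to 91411363, minus strand) encodes a secreted Wnt ligand. It was sporadic in both genotypes: HSA-NRTN libraries 1 to 5 had 69, 0, 1, 103 and 11 counts, and wild-type libraries 1 to 5 had 0, 9, 0, 0 and 7 counts. In CPM these were 20.5, 0, 0.183, 14.7 and 2.71 against 0, 2.55, 0, 0 and 1.39, so HSA-NRTN replicates 1, 4 and 5 lay above the wild-type range and replicates 2 and 3 at its lower end. At the depth of HSA-NRTN replicate 2, a count of 0 allows up to 1.62 CPM. Pooled counts of 184 and 16 gave a ratio of 12.2, with an exact 95% interval of 7.29 to 21.7 for counting error, and HSA-NRTN replicates 1 and 4 held 69 and 103 of the 184 counts. Without a filter edgeR gave a log2 fold change of 3.27 (SE 1.32, adjusted p = 0.339), or 3.59 without HSA-NRTN replicate 2, and DESeq2 an adjusted p of 0.508, while the authors' deposited table has 0.0545.

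Of 10 genes of Wnt7 ligands and receptors, 5 could be fitted, with 4 positive and 1 negative log2 fold changes (median 0.40), and none passed. Fzd3, a Wnt receptor of the frizzled family, had the largest of these changes, -1.71 (SE 0.79), from 9.60 ± 4.38 CPM among wild-type mice to 2.84 ± 2.23 CPM among HSA-NRTN mice (mean ± SD, n = 5 each, edgeR adjusted p = 0.999). The co-receptor gene Lrp6 was at 23.7 ± 11.3 CPM in HSA-NRTN and 16.3 ± 11.2 CPM in wild-type pools. Reck, whose product presents Wnt7 ligands to their receptor complex in the vessels of the brain, gave a log2 fold change of 0.40 (SE 1.12), while Adgra2, its partner there, had 0 counts in every library.

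Creb5 (ENSMUSG00000053007, chromosome 6 from 53287270 to 53700376, plus strand) encodes a bZIP transcription factor that binds cAMP response elements. The HSA-NRTN libraries 1 to 5 held 19.6, 42.2, 14.3, 33.3 and 35.0 CPM, and the wild-type libraries 1 to 5 held 10.3, 21.5, 5.40, 4.82 and 3.57 CPM. HSA-NRTN replicates 2, 4 and 5 lay above all wild-type libraries, and wild-type replicate 2 lay above HSA-NRTN replicates 1 and 3. The means were 28.9 ± 11.5 and 9.13 ± 7.39 CPM (SD, n = 5 each). The difference, 1.66 (SE 0.54) on the log2 scale, was not called over all genes (edgeR, unadjusted p = 0.00735, adjusted p = 0.743). Without wild-type replicate 2 it was 2.26 (adjusted p = 0.274), without HSA-NRTN replicate 2 it was 1.49, and every alternative was positive. In the authors' deposited table the moderated log2 fold change was 1.19, with an adjusted p of 0.0950. A moderated value is not directly comparable in size with that of edgeR. The 7 related bZIP genes that were fitted gave 2 positive and 5 negative log2 fold changes (median -0.19), from -0.36 (SE 0.45) for Atf7 to 0.60 (SE 0.53) for Jun, and none had an unadjusted p under 0.05.

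The windows around the start sites of the 3 gamma members with higher means, and of Vipr2 for contrast, are printed because these 4 genes had the largest differences between genotypes. Each runs from 250 bases before to 50 bases after a start site in RefSeq (GRCm38.p6), on the strand of the gene, and capitals mark the matches listed after the sequences. They lie at chr7:16476731-16477030 on the minus strand for Npas1, chr6:91411304-91411603 on the minus strand for Wnt7a, chr6:53287053-53287352 on the plus strand for Creb5 and chr12:116077476-116077775 on the plus strand for Vipr2.
Npas1: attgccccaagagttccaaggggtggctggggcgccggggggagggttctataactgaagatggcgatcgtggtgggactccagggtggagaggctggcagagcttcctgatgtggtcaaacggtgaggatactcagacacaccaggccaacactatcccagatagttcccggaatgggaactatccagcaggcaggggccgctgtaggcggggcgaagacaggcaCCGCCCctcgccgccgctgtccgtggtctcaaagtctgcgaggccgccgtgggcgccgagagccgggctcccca
Wnt7a: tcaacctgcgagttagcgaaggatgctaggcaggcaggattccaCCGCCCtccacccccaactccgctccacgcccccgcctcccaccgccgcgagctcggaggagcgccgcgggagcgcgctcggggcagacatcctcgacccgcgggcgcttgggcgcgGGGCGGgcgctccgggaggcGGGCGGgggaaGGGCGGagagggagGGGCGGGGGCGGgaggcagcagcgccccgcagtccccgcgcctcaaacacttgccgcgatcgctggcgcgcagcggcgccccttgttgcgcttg
Creb5: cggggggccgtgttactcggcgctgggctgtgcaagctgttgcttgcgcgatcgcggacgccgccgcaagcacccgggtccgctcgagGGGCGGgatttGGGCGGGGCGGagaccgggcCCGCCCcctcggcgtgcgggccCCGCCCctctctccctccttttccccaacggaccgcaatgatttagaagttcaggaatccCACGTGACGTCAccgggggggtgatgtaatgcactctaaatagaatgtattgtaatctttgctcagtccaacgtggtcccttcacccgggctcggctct
Vipr2: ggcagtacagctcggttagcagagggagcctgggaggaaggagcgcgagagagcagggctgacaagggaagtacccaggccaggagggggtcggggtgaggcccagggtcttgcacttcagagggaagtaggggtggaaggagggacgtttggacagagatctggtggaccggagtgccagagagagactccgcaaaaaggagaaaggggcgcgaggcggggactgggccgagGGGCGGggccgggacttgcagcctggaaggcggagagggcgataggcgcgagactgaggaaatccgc

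Each of 6 motifs was searched on both strands: the half-site of estrogen-related receptors (AAGGTCA), the cAMP response element (TGACGTCA), the E-box (CACGTG), the TATA box (TATAAA), the GC box (GGGCGG) and a homeodomain site (TAATTA). The 8 members had 11 windows in the RefSeq table. GC boxes occurred in 4 of the 11, the windows printed here, and in 35.7% of all 32851 windows. Wnt7a had 6 of them in a window of 76.0% GC with 42 CpG sites, against a median of 52.7% GC over all windows. Another window of Creb5, at chr6:53573124-53573423 with 50.0% GC, held no match to any of the 6 motifs. The printed window of Creb5 held 5 GC boxes, a pair of which overlap. Its run CACGTGACGTCA joins an E-box and a cAMP response element that share bases. That response element was found in 1.79% and that E-box in 7.15% of all windows. No member window held the receptor half-site, which 4.72% of all windows had. A match describes letters and is no evidence of binding.

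Stxbp6 (ENSMUSG00000046314, chromosome 12 from 44852484 to 45074709, minus strand) encodes amisyn, a SNARE-binding protein that restrains vesicle fusion. The wild-type libraries 1 to 5 held 166, 163, 69.2, 97.4 and 110 CPM and the HSA-NRTN libraries 1 to 5 held 48.9, 47.6, 118, 79.5 and 129 CPM. The 2 HSA-NRTN males lay below every other library, and the 3 HSA-NRTN females lay inside the wild-type range. The genotypes differed by -0.51 (SE 0.34) on the log2 scale, which was not called (edgeR adjusted p = 0.999). The normal-approximation 95% interval of this difference, -1.17 to 0.15, includes 0. Without HSA-NRTN replicate 2 it was -0.37. Of 7 genes of SNARE partners and the related tomosyns, 6 were fitted, 3 with positive and 3 with negative log2 fold changes (median -0.11). Vamp2, a SNARE protein of synaptic vesicles, was at 57.8 ± 32.1 CPM in HSA-NRTN and 26.0 ± 11.1 CPM in wild-type mice (mean ± SD, n = 5 each), a log2 fold change of 1.15 (SE 0.43) that did not pass (adjusted p = 0.890). Stxbp5, which encodes a tomosyn, had a value of -0.38 (SE 0.28).

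Plch1 (ENSMUSG00000036834, chromosome 3 from 63696234 to 63899472, minus strand) encodes a phospholipase C of the eta class, which cleaves a membrane lipid into second messengers. Its levels were 62.0, 14.2, 28.6, 27.5 and 28.8 CPM in wild-type libraries 1 to 5 and 23.7, 18.4, 40.3, 42.2 and 38.2 CPM in HSA-NRTN libraries 1 to 5. The wild-type libraries held both the highest and the lowest value, and all HSA-NRTN libraries lay between them. The log2 fold change was 0.02 (SE 0.40) with a normal-approximation 95% interval of -0.77 to 0.81, and its sign turned in 10 of 24 alternatives. Without HSA-NRTN replicate 2 it was 0.16, and 0.54 when wild-type replicate 1 was left out as well. Of 11 other phospholipase C genes 10 were fitted, 3 with positive and 7 with negative log2 fold changes (median -0.29), and none passed. Plcl2, a catalytically inactive relative, was at 13.8 ± 6.59 CPM in HSA-NRTN and 2.59 ± 1.97 CPM in wild-type mice (mean ± SD, n = 5 each, log2 fold change 2.40, SE 0.70, edgeR adjusted p = 0.520). Plcb4, of the beta class, was at 138 ± 16.7 and 209 ± 53.7 CPM, a log2 fold change of -0.60 (SE 0.23, adjusted p = 0.913).

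**Figure D3:**
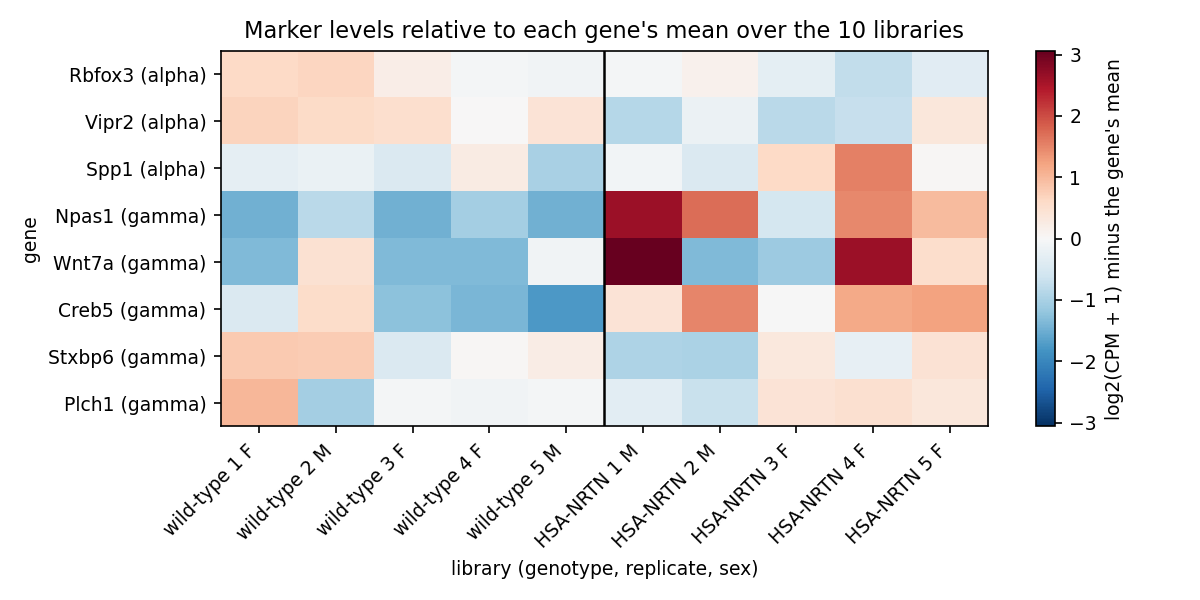
Level of each marker in each library as log2(CPM + 1) minus the mean of that gene over the 10 libraries (red above, blue below the mean), with wild-type libraries left and HSA-NRTN libraries right of the line. Npas1 and Creb5 are mostly below the mean on the left and above it on the right, Wnt7a stands out in HSA-NRTN replicates 1 and 4, and Stxbp6 is lowest in HSA-NRTN replicates 1 and 2.

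The gamma markers did not behave as a block across libraries. Of the HSA-NRTN libraries, replicate 1 was highest for Npas1 and Wnt7a, replicate 2 for Creb5, replicate 5 for Stxbp6 and replicate 4 for Plch1. HSA-NRTN replicate 2 had 8.11 CPM of Npas1 and 42.2 CPM of Creb5 but 0 counts of Wnt7a. Summed per kb without Spp1, which outweighs all others, the gamma markers made up 48.6%, 30.0%, 53.4%, 55.6% and 43.9% of alpha and gamma markers in HSA-NRTN libraries 1 to 5. The shares in wild-type libraries 1 to 5 were 39.5%, 37.2%, 24.8%, 37.2% and 35.3%, so 4 of the 5 HSA-NRTN libraries lay above the wild-type range and replicate 2 inside it. The gamma sum itself was not higher in HSA-NRTN libraries, at 24.5, 15.5, 27.9, 28.1 and 32.5 CPM per kb in replicates 1 to 5. Wild-type libraries 1 to 5 had 39.0, 34.2, 16.6, 21.9 and 24.7 CPM per kb. Stxbp6 was the largest part of this sum in every library, and its HSA-NRTN mean was lower, 16.0 against 22.9 CPM per kb. Mean Npas1 was higher, 2.40 against 0.0605, as were Wnt7a, 2.40 against 0.248, and Creb5, 1.15 against 0.365. Plch1 was nearly equal, 3.77 against 3.73. With Stxbp6 counted, the higher share went with lower Vipr2 and Rbfox3. A gamma sum without Stxbp6 was not tested. With Spp1 in the sum, the gamma share was 0.593% to 1.91% in HSA-NRTN and 1.11% to 2.83% in wild-type libraries.

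Among the 6 fitted members, 15 pairs were compared over the 10 libraries on log2(CPM + 1), and no correlation passed adjustment over the pairs. By Pearson r the 3 alpha pairs had the largest values: Rbfox3 and Vipr2 had an r of 0.66 (permutation p = 0.0404, adjusted 0.218) and a Spearman rho of 0.60 (permutation p = 0.0730). Spp1 ran opposite to both, with r of -0.65 against Rbfox3 (permutation p = 0.0437, adjusted 0.218; rho = -0.59, permutation p = 0.0797) and -0.64 against Vipr2 (permutation p = 0.0383, adjusted 0.218; rho = -0.56, permutation p = 0.0965). After each gene was centred on its genotype means these became 0.33, -0.48 and -0.45. Without the 2 libraries farthest from the median of the first gene they were 0.48, -0.39 and -0.76. By rank, Vipr2 and the gamma marker Stxbp6 had a rho of 0.60 as well (permutation p = 0.0740, r = 0.54, permutation p = 0.107), and after centring the largest values were those of Creb5 with Rbfox3, 0.56, and with Vipr2, 0.54. The gamma markers Stxbp6 and Plch1 had an r of 0.34 (permutation p = 0.340, rho = 0.41, permutation p = 0.249), which was -0.02 without the 2 farthest libraries.

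The genes most like each fitted member over the 10 libraries, by Pearson r of log2(CPM + 1) among 8539 genes with a mean of at least 10 CPM, are given as a description. For Rbfox3 they were Ppp3ca (r = 0.95), Fbxw11 (0.94) and Prkcb (0.94). For Vipr2 they were Ano4 (0.92), Zfp943 (0.92) and Pde1b (0.91), and for Spp1 Mdh1 (0.90), Pgls (0.90) and Pgam1 (0.89). Among gamma markers, Creb5 was followed by Slitrk2 (0.85), Slc5a7 (0.84) and Gtdc1 (0.84), Stxbp6 by Scrn3 (0.94), Hecw1 (0.90) and Thap12 (0.90), and Plch1 by Cul4b (0.96), Mbip (0.91) and Pot1a (0.91). The points share depth and cell number, and the highest of so many such values over 10 points is large by selection.

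Other markers of the gamma class were read beside the members. Of 6, 4 were fitted, 3 with a positive and 1 with a negative log2 fold change (median 0.42), and none passed over all genes. Esrrg was at 197 ± 41.9 CPM in HSA-NRTN and 127 ± 41.5 CPM in wild-type mice (mean ± SD, n = 5 each, log2 fold change 0.63, SE 0.26, edgeR adjusted p = 0.949). Htr1d, a serotonin receptor gene that marks gamma cells in the mouse, was counted in every HSA-NRTN library, at 4.15, 9.19, 0.549, 10.3 and 3.70 CPM in replicates 1 to 5. It had 0 counts in all 5 wild-type libraries, whose depth allows up to 0.516 to 0.850 CPM each. Such a separation with HSA-NRTN higher occurred for 0.499% of the 26070 genes with a count. The level in HSA-NRTN replicate 3 lies below what 4 of the 5 wild-type libraries could show, so that library cannot be told from wild-type. Htr1f, a related receptor gene, was at 5.14 ± 2.95 and 1.22 ± 1.45 CPM (log2 fold change 2.04, SE 1.05, adjusted p = 0.999). Gfra1 differed little, at 96.8 ± 39.9 CPM in HSA-NRTN and 83.3 ± 54.3 CPM in wild-type mice (log2 fold change 0.22, SE 0.42, edgeR adjusted p = 0.999). In the other direction, Nrp2, a semaphorin receptor gene whose place on the list is less certain, was at 119 ± 27.3 and 232 ± 44.9 CPM, with no overlap between the genotypes, as for 0.602% of all genes in this direction (log2 fold change -0.96, SE 0.24, adjusted p = 0.336). Pard3b had 79 counts in transgenic and 0 in wild-type mice, at 36.8 CPM in HSA-NRTN replicate 2 and at most 0.986 CPM in the others.

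Other markers of alpha cells were read as 1 list that mixes genes of their fast and slow subtypes. The subtypes were not separated here, so the counts and the median of this list describe neither subtype. Of 9 fitted, 4 had positive and 5 negative log2 fold changes, with a median of -0.35, and none passed. Chodl, Calca and Kcnq5 lay lower in every HSA-NRTN than in every wild-type library, as did 0.602% of all genes tested. Chodl, a lectin-like membrane protein gene, was at 593 CPM against 1814 CPM (log2 fold change -1.61, SE 0.25, edgeR adjusted p = 0.0501). For Calca, which encodes the peptide CGRP, the log2 value was -1.69 (SE 0.34, adjusted p = 0.142), and for the potassium channel gene Kcnq5 it was -2.62 (SE 0.76, adjusted p = 0.518). Mmp9, a matrix metalloprotease gene, had a value of -0.59 (SE 0.42), the synaptic vesicle gene Sv2a one of 1.24 (SE 0.72) and the potassium channel gene Kcnn3 one of 1.82 (SE 0.91), and the groups overlapped for all 3. Rreb1, a transcription factor gene whose place on the list is also less certain, was at 26.5 ± 14.8 CPM in HSA-NRTN and 7.01 ± 5.20 CPM in wild-type pools (log2 fold change 1.90, SE 0.57, adjusted p = 0.566).

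**Figure D4:**
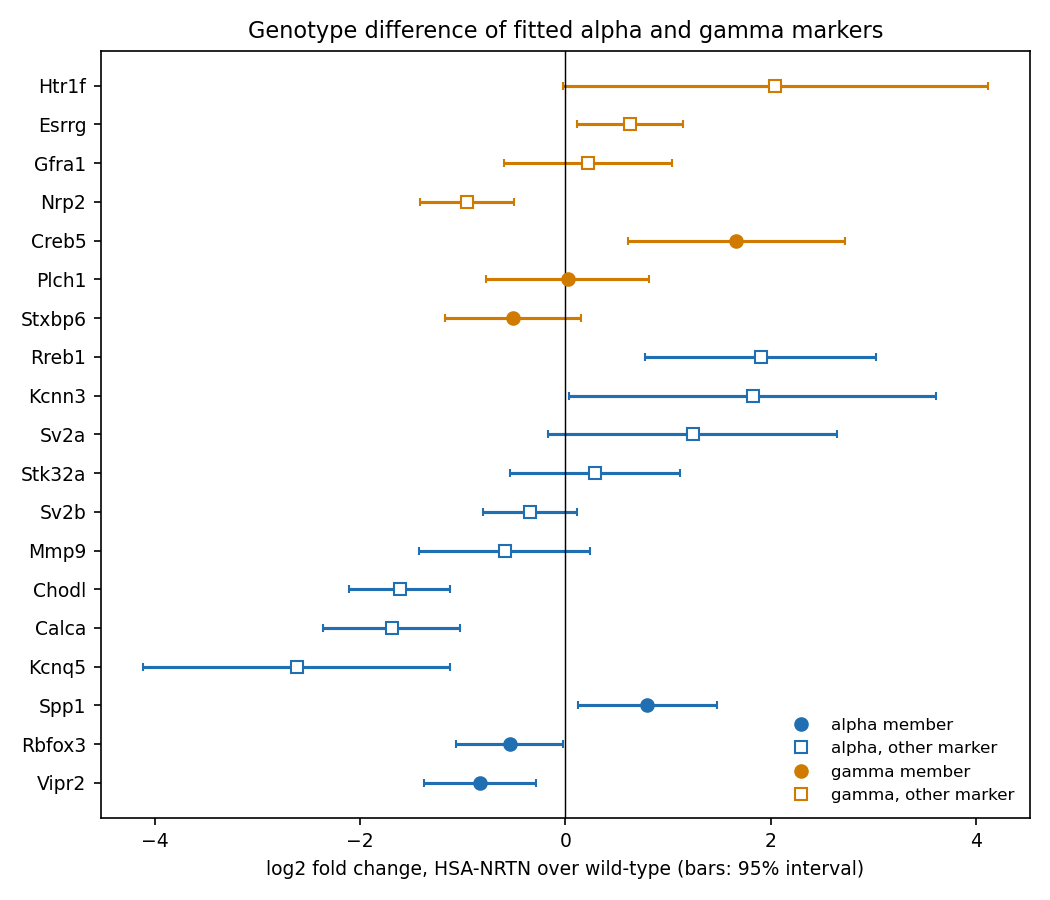
Log2 fold change of HSA-NRTN over wild-type for each fitted alpha (blue) and gamma (orange) marker in edgeR. Bars are normal-approximation 95% intervals, filled circles the 6 fitted members and open squares other markers. The bars are narrower than the F test implies: those of Rbfox3 and Kcnn3 exclude 0 at unadjusted edgeR p-values of 0.0599 and 0.0633. Positive and negative values occur in both classes, from -2.62 for Kcnq5 to 2.04 for Htr1f.

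Sex was tested because each group held 3 females and 2 males. No member passed with sex as the contrast (0 of 6, where 0.0086% of all genes passed), and 2 had an unadjusted p under 0.05, where 11.2% of all genes did. Spp1 was lower in males by a log2 fold change of -0.76 (SE 0.31, edgeR adjusted p = 0.407), and Plch1 by -0.90 (SE 0.36, adjusted p = 0.407), neither of which passed. Mean Plch1 was 21.1 CPM in HSA-NRTN and 21.5 CPM in wild-type males, and 40.2 and 39.4 CPM in females. No member passed the test of the genotype by sex interaction either (0 of 6, with 0% of all genes passing and 5.14% at an unadjusted p under 0.05). Its smallest p was that of Stxbp6, 0.0238 (edgeR adjusted p = 0.922), for an interaction of -1.47 (SE 0.58) on the log2 scale. In males alone Stxbp6 had a log2 fold change of -1.51, with 48.2 CPM on average in HSA-NRTN and 136 CPM in wild-type libraries, and in females alone one of -0.001, with 109 and 111 CPM. The HSA-NRTN males are replicates 1 and 2, the latter with the high oligodendrocyte markers. Without replicate 2 the interaction of Stxbp6 was -1.45 (SE 0.69, edgeR unadjusted p = 0.0584), and with wild-type replicate 1 left out as well it was -1.86 (SE 0.58, adjusted p = 0.761).

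**Figure D5:**
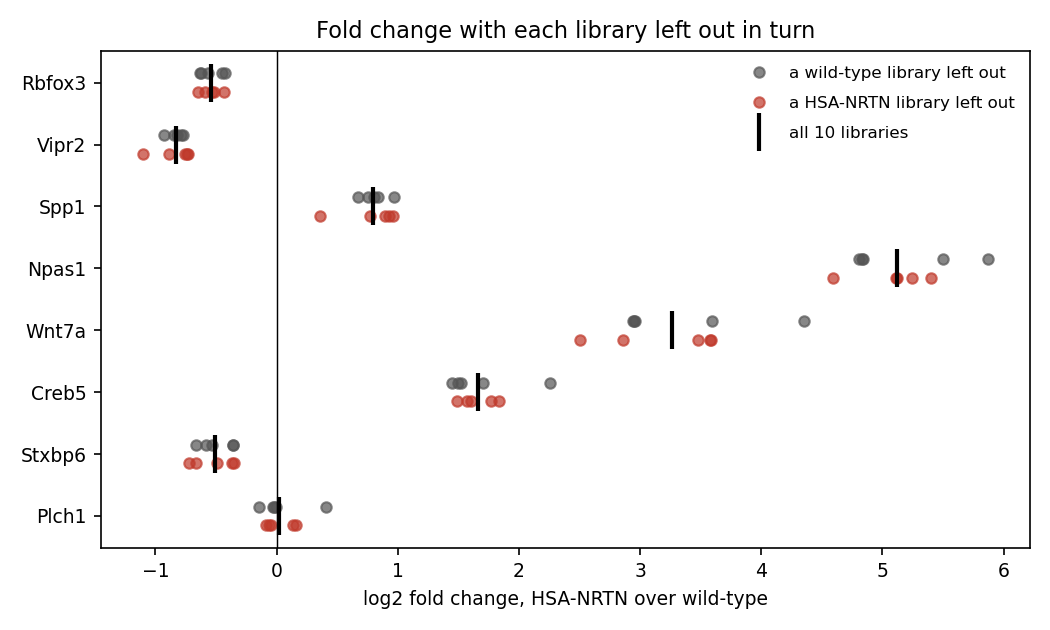
Log2 fold change of each member with 1 library left out in turn, grey where a wild-type and red where an HSA-NRTN library was left out, with a black bar for all 10 libraries (Npas1 and Wnt7a fitted without a filter on low counts). Spp1 moves from 0.80 to 0.36 without HSA-NRTN replicate 4, Creb5 from 1.66 to 2.26 without wild-type replicate 2, and Plch1 lies on either side of 0.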

How the data were processed

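Lumbar motor neurons of 10 mice were captured by laser and sequenced with Smart-seq2 and Tn5 fragmentation, per the labels' protocols. The method uses no molecular identifiers and keeps no strand, hence overlapping or antisense genes could not be separated. Per the submitters' processing notes, the authors used STAR 2.5.0a, HTSeq and GRCm38.p6, and they deposited raw counts per gene for 51912 genes, with 92 spike-in sequences and 5 tally entries that stayed out of library sizes and tests. Genes took 13.5% to 42.3% of the reads in each count file. HTSeq settings and the annotation release were not given in the sources used here. A deposited expression table holds a signal, the counts of each library divided by a size factor of the authors, and was only checked against the counts, to which its ratio was constant within each library. The deposited comparison table holds the authors' log2 fold changes, a test statistic as a score and p-values from DESeq2, per the submitters' processing notes. It gave the gene symbols here and is named wherever its values are printed. Its log2 fold changes divided by their SE do not give its test statistic, so they are called moderated here.

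The labels gave groups and sex. Replicate numbers follow record order and pair no animals. Each library is 1 pool of cells from 1 mouse, and p-values of the fits measure the spread between libraries. Differences between mice and those of cell capture and library preparation cannot be separated in that spread. Genes were kept by filterByExpr of edgeR 4.0.16 (R 4.3.3) for the genotype groups, which left 11630, scaled by TMM and tested with the quasi-likelihood F test. The genotype test had no covariate, the sex test had genotype in the model, and the interaction test both. P-values were adjusted by Benjamini and Hochberg over all genes and called under 0.05. Npas1 and Wnt7a fell below the filter and were fitted without it, an alternative chosen after seeing the data. Levels are CPM on TMM-scaled totals, per kb of the exon union of GENCODE M21 where genes are compared. DESeq2 1.42.0 and limma 3.58.1 (voom), other scalings, filters, covariates and left-out libraries were alternatives. Floors are 3 counts, and intervals of pooled ratios are exact at 95%. Intervals of log2 fold changes take the SE and a normal quantile, and are narrower than the F test implies. Pair correlations used 100000 permutations of the 10 libraries across both genotypes, so their p-values include the genotype difference. The fits were tested on simulated data. Promoter windows are from RefSeq.

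The members, the lists and the alternatives were chosen with earlier results of these data known. All 8 members are named, and for the other lists at most 4 genes of smallest p with values, the rest by counts. Gad2, Cd44, Adcyap1, Vip and those at 0 counts fall outside that rule and, like Slc6a5 and Fzd3 inside it, were chosen after their values were seen. Htr1d, Pard3b, Mmp9, Sv2a, Kcnn3, Chat and Nefh are also given with values outside it.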

Additional observations from a re-analysis of the deposited data

Results flagged for a closer look

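In 81 groups of 5 libraries checked, 8 had a library far from the others by Dixon's criterion, where chance alone gives about 1 in 20 groups, and none of the 8 was a level of a member. HSA-NRTN replicate 2 accounts for 5 of them. It lay at 89.2 CPM for the astrocyte marker sum, next to 38.9 CPM in the nearest HSA-NRTN library, and at 1419 CPM for the oligodendrocyte marker sum, next to 475 CPM. Its sum was 9.19 CPM for the oligodendrocyte precursor markers, next to 3.56 CPM, and 75.1 CPM for the pericyte markers, next to 8.88 CPM. Pard3b, a cell polarity gene listed as a gamma marker, was at 36.8 CPM in that library and at 0.986 CPM in the next.

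In wild-type libraries, replicate 5 had a sum of 299.7 CPM for the excitatory interneuron markers, next to 32.4 CPM. Adcyap1 was at 1.61 CPM in wild-type replicate 1 and at 0 in the other 4. Chat was lowest in wild-type replicate 4, at 70.7 CPM, next to 90.9 CPM.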

How the results depend on the processing

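Besides Npas1, no member was called under any alternative, and the log2 fold changes of Rbfox3, Vipr2, Spp1, Creb5 and Stxbp6 kept their direction in all 24, those of Npas1 and Wnt7a in all 22. The count of members called was 0 throughout, with 1 in DESeq2. Plch1 turned, with a log2 fold change of -0.070 with the number of genes detected, -0.014 when runs of animal numbers entered as a covariate and -0.035 in males alone, and ran from -0.15 to 0.41 with 1 library left out. Stxbp6 ran from -1.51 in males to -0.001 in females, Spp1 from 0.23 to 1.02, and Wnt7a from 2.37 in males to 7.95 in females, where all wild-type libraries were at 0 counts, so that this fitted value is no bound. Npas1 ran from 4.59 to 5.87 with 1 library left out. The cause of these shifts was not tested. Over all genes, 1 was called by the main test, 81 without a filter, 126 in DESeq2, 3 in limma voom, 12 with quality weights, 5 with sex, 10 with the number of genes detected and 0 with animal number runs, and 0 in females or males alone. Leaving out 1 library gave 0 (without wild-type replicate 2) to 13 genes (without HSA-NRTN replicate 3). The median log2 fold change of all genes was 0.14 in DESeq2. No member was called for sex or the interaction under any alternative run. No paired analysis was possible because the replicate numbers were given in record order and no animal number is shared between the groups. Depth limits genes of a few counts per library, such as Npas1, Wnt7a and Htr1d, since 3 counts are worth 0.428 to 1.62 CPM.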
